A study of Mus musculus with 16 samples.

Results

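Nfkb1, Nfkb2, Rela, Relb and Rel encode the 5 subunits of the transcription factor NF-kB. They were followed through naive T cells sorted by how much CD5 the cells carried on their surface. The 5 genes were taken by name from a table of read counts for 24421 genes, and all 5 were among the 13554 genes with enough counts to be tested. Cells came from lymph nodes of C57BL/6 mice, lacked CD25 and had high CD62L and low CD44, the surface state of naive T cells. CD8+ and CD4+ cells were each divided by surface CD5 into 3 equal parts, of which the top part (CD5hi) and the bottom part (CD5lo) were kept. That gave CD8 CD5hi, CD8 CD5lo, CD4 CD5hi and CD4 CD5lo cells, with no treatment and no altered allele in the labels, and each group had 4 libraries of RNA, 16 in all. The 4 libraries of a group are called biological replicates by the submitters, but no source used here gives the mice's age or sex, or says whether these libraries came from separate animals, so p-values measure only the spread between them. CD5 restrains signalling from the T cell receptor, and the title of the study joins it to the resting activity of NF-kB.

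NF-kB proteins act as dimers that inhibitors of the IkB family hold in the cytoplasm of resting cells, until the IKK complex marks the inhibitors for destruction. RelA, RelB and c-Rel, the products of Rela, Relb and Rel, carry domains that activate transcription, whereas p50 and p52, cut from the precursors p105 (Nfkb1) and p100 (Nfkb2), do not. In T cells the antigen receptor signals to IKK with the help of MALT1, c-Rel is known for its part in activation and in regulatory T cell development, and p100 with RelB belongs to the slower non-canonical branch.

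The regions before the starts of Rel, Nfkb2 and Rela are shown, and the RefSeq set used here had no entry for Nfkb1 or Relb. Rel and Nfkb2 are well-known targets of NF-kB itself, and the region of Rela is set beside theirs. Each sequence is the 250 bases before a RefSeq start (GRCm38.p6), 5′ to 3′ on the gene's strand. Capitals mark matches to the kB consensus, the site that NF-kB dimers bind, searched on both strands in windows that also took in the 50 bases after the start.
Rel, chr11:23770970-23771219, minus strand: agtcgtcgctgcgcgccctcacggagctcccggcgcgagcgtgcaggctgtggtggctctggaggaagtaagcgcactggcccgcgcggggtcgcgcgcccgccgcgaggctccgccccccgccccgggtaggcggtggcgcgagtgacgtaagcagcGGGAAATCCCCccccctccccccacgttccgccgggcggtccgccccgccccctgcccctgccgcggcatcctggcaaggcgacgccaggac
Nfkb2, chr19:46304487-46304736, plus strand: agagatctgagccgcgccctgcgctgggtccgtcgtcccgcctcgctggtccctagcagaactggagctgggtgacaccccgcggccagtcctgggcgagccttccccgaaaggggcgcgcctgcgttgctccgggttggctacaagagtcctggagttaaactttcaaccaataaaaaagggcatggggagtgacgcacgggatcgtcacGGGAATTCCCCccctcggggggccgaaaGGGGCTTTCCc
Rela, chr19:5637291-5637540, plus strand: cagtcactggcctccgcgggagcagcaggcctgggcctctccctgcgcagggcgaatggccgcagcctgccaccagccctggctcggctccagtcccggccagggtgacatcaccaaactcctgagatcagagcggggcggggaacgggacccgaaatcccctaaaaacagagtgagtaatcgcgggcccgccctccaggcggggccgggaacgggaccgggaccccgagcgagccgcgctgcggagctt
In the window of Rel, 2 overlapping matches spanned bases -92 to -82 counted from the start. The Nfkb2 window held 3 matches, an overlapping pair at -39 to -29 and a single one at -11 to -2. The windows at the 2 other listed starts of Nfkb2 overlap each other and held 2 and 1. The match of the latter window is the same site as a match of the former, so it is counted in both. No match was found in the window of Rela, which says only that these letters are not in it. Of 32851 windows in the RefSeq set, 8.46% held a match, and of 31 windows that belong to genes on a list of known NF-kB targets, 41.9% did. These matches describe the sequence and do not show binding.

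On the GRCm38 assembly, Nfkb1 lies at chr3:135584655-135691547 on the minus strand, Rela at chr19:5637483-5648130 on the plus strand, Relb at chr7:19606217-19629438 on the minus strand and Rel at chr11:23736847-23770970 on the minus strand. Nfkb2 lies at chr19:46304320-46312385 on the plus strand. Of its 4584 exonic bases, 830 (18.1%) are shared with genes on the opposite strand, mainly Psd, and since no source used here says whether counting used the strand, the reads of Nfkb2 and Psd cannot be told apart there. Psd itself averaged 24.2 CPM (counts scaled to a common library size) in CD8 CD5hi, 27.3 CPM in CD8 CD5lo, 21.5 CPM in CD4 CD5hi and 26.1 CPM in CD4 CD5lo. The other 4 genes share no exonic base with another annotated gene.

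Libraries held 71447252 to 93418385 counts. Cd5, the gene behind the sort, followed the gates, with Cd5 RNA at means of 498 CPM in CD8 CD5hi, 200.4 CPM in CD8 CD5lo, 1386 CPM in CD4 CD5hi and 255 CPM in CD4 CD5lo. In 3 libraries (CD8 CD5hi replicate 4, CD8 CD5lo replicate 3 and CD4 CD5lo replicate 3) the summed level of 16 B cell markers was 402 to 1031 CPM, against 11.4 to 75.2 CPM in the other 13, and 3 of those markers (Ebf1, Pax5 and Blk) were at 0 in 1 library each. Other markers were raised there too. The sum of 2 CD4 T cell markers was 82.6 CPM in CD8 CD5hi replicate 4 and 34.0 CPM in CD8 CD5lo replicate 3. It was at most 1.52 and 3.58 CPM in the other libraries of those groups. Myeloid and dendritic cell markers summed to 82.3 and 65.4 CPM in the same libraries, against at most 53.2 and 51.2 CPM. Results that rest on these B-rich libraries are also given without them. The same libraries enter several comparisons, so the values of different comparisons are set side by side and are not independent.

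Per kilobase of exon, Rela had the highest level of the 5 genes and Rel by far the lowest, in each of the 16 libraries. Divided by the union of annotated exons, Rela averaged 47.1 ± 9.03 CPM per kb in CD8 CD5hi, 53.3 ± 8.05 in CD8 CD5lo, 54.9 ± 7.52 in CD4 CD5hi and 56.7 ± 8.54 in CD4 CD5lo (mean ± SD, n = 4 libraries each). Rel averaged 4.00 ± 1.42 CPM per kb in CD8 CD5hi, 3.74 ± 1.61 in CD8 CD5lo, 3.99 ± 1.31 in CD4 CD5hi and 3.98 ± 1.49 in CD4 CD5lo. Over all libraries Rela stood at percentile 93.8 of 12996 tested genes with an annotated length, Nfkb1 at 84.3, Nfkb2 at 84.0, Relb at 76.5 and Rel at 44.5. The mean of Rel over the libraries, 3.93 CPM per kb, was below the median of those genes (5.29), and Rel made up 2.99 to 3.38% of the summed subunit level in the 4 group means.
Nfkb1 and Nfkb2, the precursor genes, were next to each other in that order. Their ranges over the 4 libraries overlapped in CD8 CD5hi, CD8 CD5lo and CD4 CD5lo. They did not in CD4 CD5hi, where Nfkb1 had 26.5 to 27.3 CPM per kb and Nfkb2 19.3 to 26.1. Relb came after both, and its range met that of Nfkb2 only in CD8 CD5hi (14.6 to 19.7 CPM per kb for Relb and 18.7 to 28.6 for Nfkb2). Together the 2 precursor genes made up 41.3 ± 2.32% of the summed level per kb in CD8 CD5hi, 39.8 ± 1.67% in CD8 CD5lo, 39.3 ± 2.06% in CD4 CD5hi and 39.0 ± 1.46% in CD4 CD5lo.
The top of this order turns on the length used. The annotated exons of Nfkb1 add up to 12061 bases over 10 transcripts, while its longest coding transcript has 4117 bases. With the longest coding transcript as the length, Nfkb1 came first in 15 of 16 libraries and Rela second in those 15, and Relb was above Nfkb2 in 10. Nfkb1 then made up 35.1 to 39.4% of the summed level in the 4 group means and Nfkb2 12.9 to 16.0%. The share of the 2 precursor genes together was thus larger than with the union of exons. Rel, whose single annotated transcript has 7466 bases, was last in 16 of 16 libraries with either length.

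**Figure D1:**
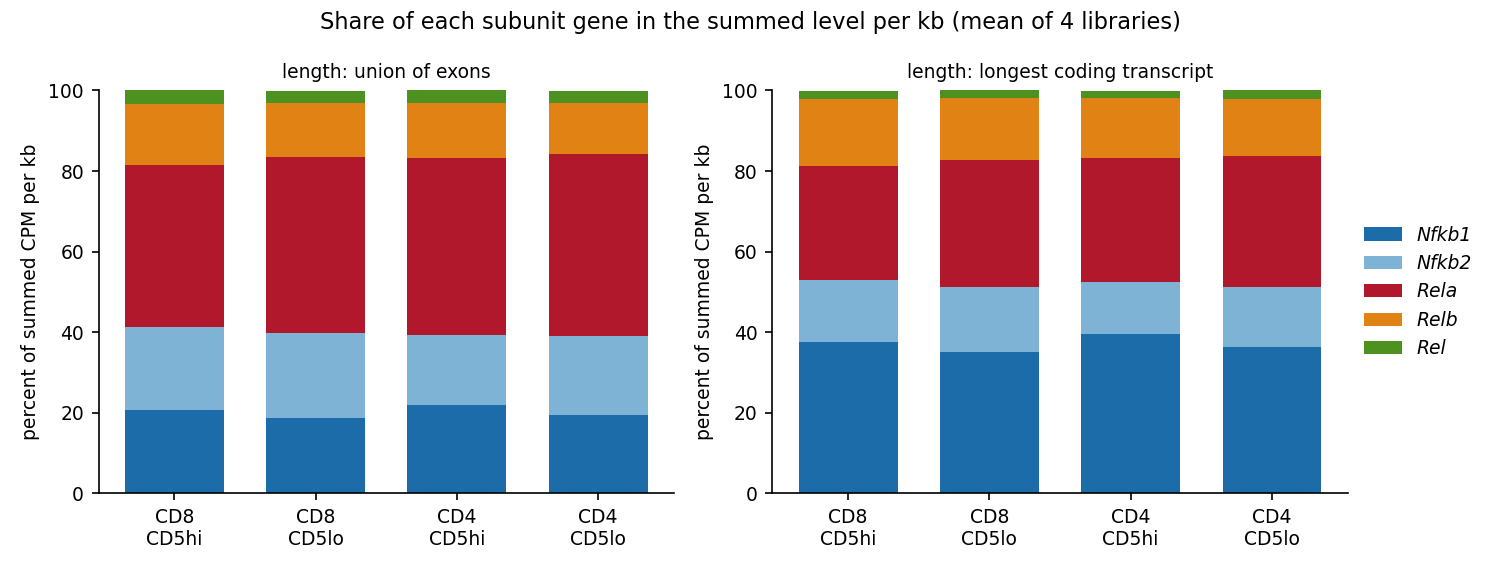
Share of each subunit gene in the summed level of the 5 genes (percent of CPM per kb, mean of 4 libraries a group), with the union of exons as the length on the left and the longest coding transcript on the right. Rela (left) or Nfkb1 (right) takes the largest share, Rel is a thin band at the top of each bar, and the 4 groups differ little beside the change of length.

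Of the subunits that activate transcription, Rela encodes RelA (p65), the main partner of p50. Rela had 104, 149, 161 and 164 CPM in CD8 CD5hi (replicates 1 to 4 here and below) and 128, 169, 177 and 181 CPM in CD8 CD5lo. It had 139, 162, 192 and 182 CPM in CD4 CD5hi and 154, 152, 208 and 182 CPM in CD4 CD5lo. All 4 groups overlapped, with the lowest value in CD8 CD5hi replicate 1 and the highest in CD4 CD5lo replicate 3.
Relb encodes RelB, the partner of p52. It had 56.6, 67.0, 76.4 and 73.2 CPM in CD8 CD5hi and 55.3, 60.1, 77.2 and 66.3 CPM in CD8 CD5lo. In CD4 CD5hi it had 61.7, 60.8, 71.8 and 69.7 CPM, and in CD4 CD5lo 61.5, 52.8, 76.8 and 57.3 CPM. The groups overlapped throughout, and replicate 3 was the highest library in each.
Rel encodes c-Rel. It had 18.3, 29.96, 44.0 and 27.4 CPM in CD8 CD5hi and 17.3, 28.0, 44.7 and 21.7 CPM in CD8 CD5lo. In CD4 CD5hi it had 18.7, 36.01, 39.8 and 24.6 CPM, and in CD4 CD5lo 17.6, 32.8, 43.6 and 25.0 CPM. Each group thus spanned more than the distance between any pair of group means, and in each the order of the libraries was replicate 3, 2, 4 and 1 from high to low.
Of the precursors, Nfkb2 encodes p100, which is both the source of p52 and an inhibitor. It had 85.8, 109, 131 and 119 CPM in CD8 CD5hi and 96.6, 112, 149 and 115 CPM in CD8 CD5lo. In CD4 CD5hi it had 88.7, 94.96, 119.9 and 98.0 CPM, and in CD4 CD5lo 104.97, 93.9, 151 and 100.5 CPM. Replicate 3 was again the highest library of each group, and all groups overlapped.
Nfkb1 encodes p105, the source of p50. It had 272, 288, 277 and 301 CPM in CD8 CD5hi and 254, 275, 278 and 288 CPM in CD8 CD5lo. In CD4 CD5hi it had 328, 324, 319.6 and 329 CPM, and in CD4 CD5lo 299, 265, 303 and 303 CPM. The 4 CD4 CD5hi libraries lay close together and above every other library. In none of the other 4 genes did a group stand clear of the rest. How many of all genes tested had a group clear of the rest was not counted. CD4 CD5hi did not overlap CD4 CD5lo in 9.29% of all genes tested, and did not overlap CD8 CD5hi in 28.9%.

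**Figure D2:**
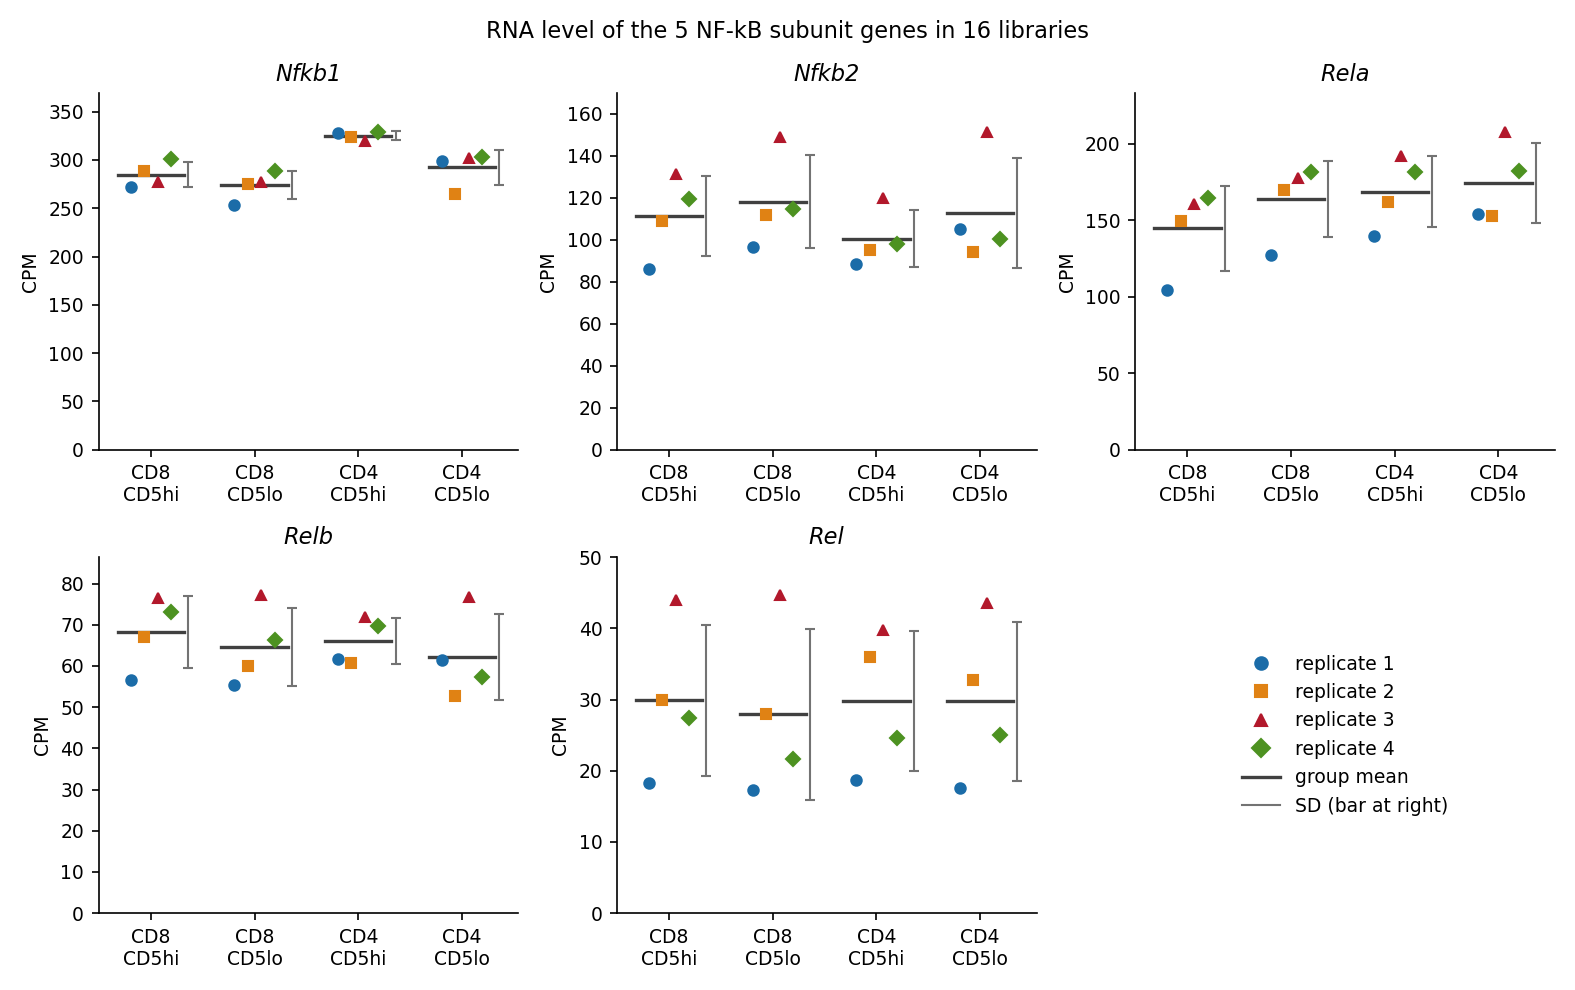
CPM of the 5 subunit genes in each library, by sorted group, with the symbol giving the replicate number, the line the group mean and the bar at its right the SD (n = 4). Groups overlap for Nfkb2, Rela, Relb and Rel, where replicate 1 tends to be low and replicate 3 high, while the 4 CD4 CD5hi libraries of Nfkb1 (319.6 to 329 CPM) lie above the others.

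With high CD5 in CD8 cells no subunit gene was called as changed. By edgeR's quasi-likelihood test 0 of 5 passed, 0 had a p under 0.05 before adjustment, and DESeq2 and limma voom called 0. Of all genes tested, 9.46% were called. The edgeR fit left the replicate number out, and the sizes it allows differ between the genes. For Nfkb1 the log2 change was 0.06 ± 0.06 (± SE, CD5hi over CD5lo), with a 95% interval of 0.95 to 1.13 as a fold. For Rela it was -0.18 ± 0.15 (0.70 to 1.10 as a fold; edgeR adjusted p = 0.540), and for Rel 0.10 ± 0.34 (0.65 to 1.76 as a fold; edgeR adjusted p = 0.907). Rela was lower in CD8 CD5hi in each of the 4 numbered pairs of libraries (differences of -0.29 to -0.14 on the log2 scale). Over all genes, these pairs did not all deviate together. Nfkb2 changed by -0.08 ± 0.17 and Relb by 0.08 ± 0.13 on the log2 scale, with edgeR adjusted p of 0.820 and 0.778. No member had CD8 CD5hi libraries clear of the CD8 CD5lo ones, a separation seen in 14.8% of all genes tested. The median size of change was 0.08 over the 5 genes and 0.16 over all genes tested (log2, signs dropped).

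In CD4 cells Nfkb1 was the one member whose libraries did not overlap between high and low CD5. Its mean was 325 ± 4.43 CPM in CD4 CD5hi and 292 ± 18.4 CPM in CD4 CD5lo (SD, n = 4 each), and 9.29% of all genes tested also separated. The log2 change of 0.15 ± 0.06 (95% interval 0.03 to 0.28) had a p of 0.0194 by edgeR before adjustment over all genes and 0.241 after it, so it was not called. The CD4 CD5lo mean rests in part on replicate 2, at 265 CPM against 299 to 303 CPM in the other 3. Over all 5 members edgeR called 0, and 1 had a p under 0.05 before adjustment, where 4.08% of all genes tested were called. DESeq2 and limma voom also called 0, as did edgeR with the replicate number as a block, where 9.68% of all genes tested were. The log2 changes of the others were -0.17 ± 0.17 for Nfkb2, -0.05 ± 0.15 for Rela, 0.09 ± 0.13 for Relb and 0.00 ± 0.34 for Rel, with edgeR adjusted p of at least 0.865. Markers of another cell type moved with this comparison, since the summed level of 6 regulatory T cell markers was 335 to 417 CPM in CD4 CD5hi and 113 to 142 CPM in CD4 CD5lo. Most of that difference was Izumo1r, the folate receptor FR4, at 262 ± 37.9 CPM in CD4 CD5hi and 48.7 ± 7.89 CPM in CD4 CD5lo (SD, n = 4 each). Foxp3, the defining factor of regulatory T cells, averaged 17.4 ± 3.44 CPM in CD4 CD5hi and 4.96 ± 1.10 CPM in CD4 CD5lo. The sort kept cells that lacked CD25, and how many regulatory T cells remained was not measured. The marker sum also separated in CD8 cells, at 174 to 191 CPM in CD8 CD5hi and 97.4 to 141 CPM in CD8 CD5lo. There Izumo1r averaged 65.6 ± 9.91 and 32.6 ± 5.02 CPM, and Foxp3 3.47 ± 3.24 and 2.23 ± 1.29 CPM. Foxp3 was highest in the B-rich libraries, at 8.31 CPM in CD8 CD5hi replicate 4 and 4.16 CPM in CD8 CD5lo replicate 3. Without these it was 1.47 to 2.35 CPM in CD8 CD5hi and 1.45 to 1.70 CPM in CD8 CD5lo. The markers' part in the Nfkb1 result was not tested, and in RNA from a whole population a change in the number of cells of a type and a change of RNA within each cell cannot be told apart.

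The CD5 effect did not differ detectably between CD8 and CD4 cells for any member. The difference of the effects (CD8 minus CD4) was -0.10 ± 0.08 for Nfkb1, 0.08 ± 0.24 for Nfkb2, -0.14 ± 0.22 for Rela, -0.01 ± 0.18 for Relb and 0.10 ± 0.48 for Rel on the log2 scale. By edgeR 0 of 5 were called and 0 had a p under 0.05 before adjustment, where 0.310% of all genes tested passed (2.80% with the replicate number as a block, again with 0 members). DESeq2 and limma voom called 0. For Rel the 95% interval ran from -0.92 to 1.11, which leaves the replicate number out of the fit; with the number as a block it ran from -0.13 to 0.33.

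The lineages differed in Nfkb1. Among CD5hi cells its RNA was lower in CD8 than in CD4 cells, at 285 ± 12.9 CPM in CD8 CD5hi and 325 ± 4.43 CPM in CD4 CD5hi (SD, n = 4 each), and the libraries did not overlap. The log2 change was -0.19 ± 0.06 (CD8 over CD4), a fold of 0.80 to 0.96 at 95%, with an edgeR adjusted p of 0.0213. Nfkb1 was the 1 member called of 5, where 30.3% of all genes tested were called, 14.8% as lower, and 28.9% had groups that did not overlap. The call is close to the threshold. It was lost (edgeR adjusted p 0.05005 to 0.0786) when CD8 CD5hi replicate 1 or 3, or any of CD4 CD5hi replicates 1, 2, 3 and 4, was left out, and in a fit on these 2 groups alone (0.0622). The B cell marker sum was 35.0 to 1031 CPM in CD8 CD5hi and 11.4 to 40.7 CPM in CD4 CD5hi; with the 3 B-rich libraries left out the change was -0.20, with an edgeR adjusted p of 0.0420. The regulatory T cell marker sum also separated these groups, at 174 to 191 CPM in CD8 CD5hi and 335 to 417 CPM in CD4 CD5hi, and its part in the Nfkb1 result was not tested.
Rela was also lower in CD8 CD5hi in each of the 4 numbered pairs of libraries (differences of -0.42 to -0.12 on the log2 scale), though its groups overlapped. Its mean was 145 ± 27.7 CPM in CD8 CD5hi and 169 ± 23.1 CPM in CD4 CD5hi (SD, n = 4 each), and its log2 change of -0.22 ± 0.15 was not called (edgeR adjusted p = 0.303). Same-numbered libraries of these 2 groups deviated together over all genes. With the replicate number as a block the change of Rela was -0.23 ± 0.07 and was called (edgeR adjusted p = 0.0144), as was that of Nfkb1 (-0.19 ± 0.05, edgeR adjusted p = 0.00667). That made 2 of 5 members, against 46.7% of all genes tested in the same fit. Nfkb2, Relb and Rel changed by 0.15 ± 0.17, 0.05 ± 0.13 and 0.01 ± 0.34 without the block, with edgeR adjusted p of at least 0.548.
Among CD5lo cells no member was called by edgeR, 0 had a p under 0.05 before adjustment, and DESeq2 and limma voom called 0, where 19.5% of all genes tested were called. With the replicate number as a block 0 members were called, against 32.1% of all genes tested. Nfkb1 averaged 274 ± 14.5 CPM in CD8 CD5lo and 292 ± 18.4 CPM in CD4 CD5lo (SD, n = 4 each), a log2 change of -0.10 ± 0.06 with a 95% interval of -0.22 to 0.03. The changes of the other 4 ran from -0.09 to 0.07, and 0 of 5 members had groups that did not overlap, against 22.3% of all genes tested.

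**Figure D3:**
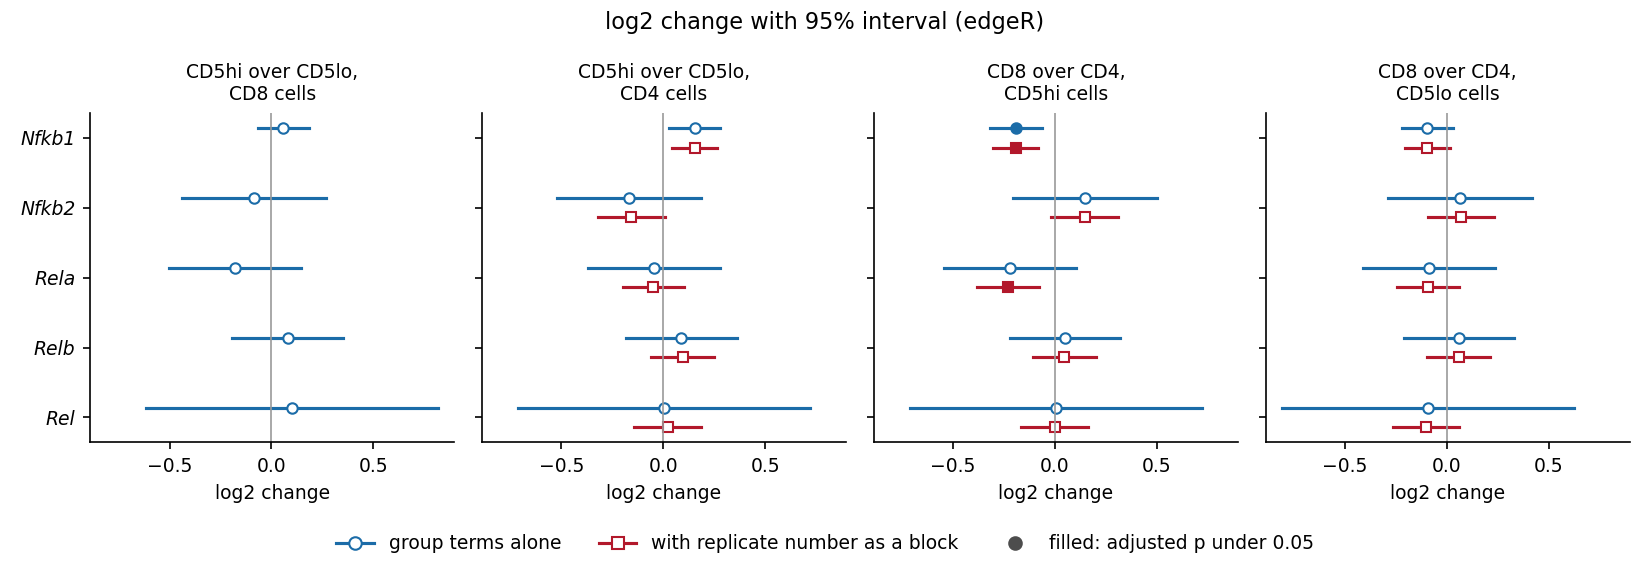
log2 change of each subunit gene with its 95% interval (edgeR) in the 4 comparisons, with group terms alone (circles) and, where same-numbered libraries deviated together, with the replicate number as a block (squares); filled symbols have an adjusted p under 0.05. Intervals of Nfkb1 are the narrowest and those of Rel the widest with group terms alone, and Nfkb1 in CD8 over CD4 CD5hi cells is filled in both fits, Rela there with the block alone.

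In 4 of the 5 genes more of the variation went with the replicate number than with the sorted group. Rel was the extreme case and kept one order of the numbers in each group. Over the 4 groups it had 17.3 to 18.7 CPM in the libraries numbered 1, 28.0 to 36.01 CPM in those numbered 2, 39.8 to 44.7 CPM in those numbered 3 and 21.7 to 27.4 CPM in those numbered 4, so the numbers did not overlap. The replicate number went with 95.6% of the variation of log2 Rel and the sorted group with 1.15%, against medians of 29.0% and 40.1% over all genes tested, and 11 genes had a larger share by number than Rel. The means by number were 94.0, 102, 138 and 108 CPM for Nfkb2 (numbers 1 to 4), with 73.8% of variation by number. Rela averaged 131, 158, 184 and 177 CPM by number, and Relb 58.8, 60.2, 75.6 and 66.6 CPM, each with 67.9% of variation by number. Their order was not the same in each group: Rela was highest in replicate 4 in both CD8 groups and in replicate 3 in both CD4 groups, and in CD4 CD5lo the lowest library of Nfkb2, Rela and Relb was replicate 2.
Nfkb1 stood apart, with means of 288, 288, 294 and 305 CPM by number, 10.6% of its variation by number and 70.2% by group. In edgeR's test of the replicate terms, chosen after these values were seen, 4 of 5 members passed, where 48.9% of all genes tested did. The adjusted p was 3.57e-07 for Rel (rank 45 of 13554 by p), 0.000406 for Nfkb2, 0.000419 for Rela and 0.00350 for Relb, against 0.382 for Nfkb1 (edgeR). With the 3 B-rich libraries left out 3 passed, Nfkb2, Rela and Rel, where 4268 of the 13570 genes tested without those libraries did. For Rel, replicate 3 had 44.7 CPM in CD8 CD5lo and 43.6 CPM in CD4 CD5lo, where it was B-rich. That replicate had 44.0 CPM in CD8 CD5hi and 39.8 CPM in CD4 CD5hi, where it was not. The part of B cells in the levels of Rel was not tested. No source used here says what libraries of one number share, and its part in these values was not tested.
This spread sets how small a change could be seen between the sorted groups. In CD5hi against CD5lo among CD4 cells, the log2 change of Rel was 0.02 ± 0.08 with the replicate number as a block, with a 95% interval of -0.14 to 0.18. Without the block it was 0.00 ± 0.34, with an interval of -0.71 to 0.72. In CD8 over CD4 among CD5hi cells the interval of Rel with the block was -0.17 to 0.16.

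**Figure D4:**
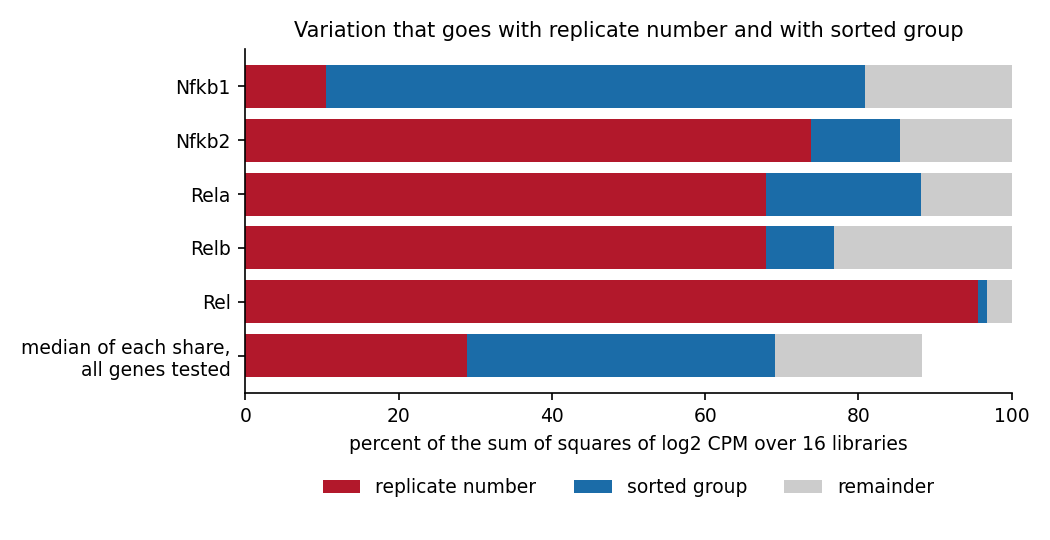
Percent of the sum of squares of log2 CPM over 16 libraries that went with the replicate number, the sorted group and neither, for each subunit gene; the lowest bar gives the median of each share over all genes tested, which need not add up to 100. Number holds 95.6% for Rel and 67.9 to 73.8% for Nfkb2, Rela and Relb, while group holds 70.2% for Nfkb1.

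Within groups, Nfkb2 and Relb, the non-canonical pair, went up and down together most closely of the subunit genes. Pearson's r between log2 Nfkb2 and log2 Relb, each centred on its group means, was 0.962 over 16 libraries. Nfkb2 was the gene most like Relb of 8951 compared, but Pi4k2a (0.980) and Tatdn2 (0.966) were more like Nfkb2 than Relb was. Without centring, r of the pair was 0.832, and Adck3 (0.890), Chpf (0.876) and Pml (0.867) were most like Relb. Within groups, Rela followed Nfkb2 and Relb, at 0.8287 with Nfkb2 and 0.823 with Relb. Rel had an r of 0.794 with Nfkb2, 0.697 with Rela and 0.646 with Relb, while with Nfkb1 it was 0.042. Nfkb1 in turn had an r of 0.616 with Rela, 0.567 with Relb and 0.443 with Nfkb2. These are descriptions: the libraries of different groups share replicate numbers, and what else they share was not tested.
By the same measure Rel was most like Pde4b (0.981), a phosphodiesterase that breaks down cyclic AMP, and Mapk6 (0.980), an atypical MAP kinase. Over all 16 libraries without centring, Mapk6 (0.971), Papd7 (0.956) and Traf6 (0.954), a ubiquitin ligase on the way to IKK, came first. Nfkb2 was most like Pi4k2a (0.980 within groups), a phosphatidylinositol kinase, and Rela like Ubald1 (0.989) and the protease Furin (0.982). Nfkb1 was most like Map3k11 (0.922), a kinase of the JNK pathway, and the lipid phosphatase Inpp5d (0.910).

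**Figure D5:**
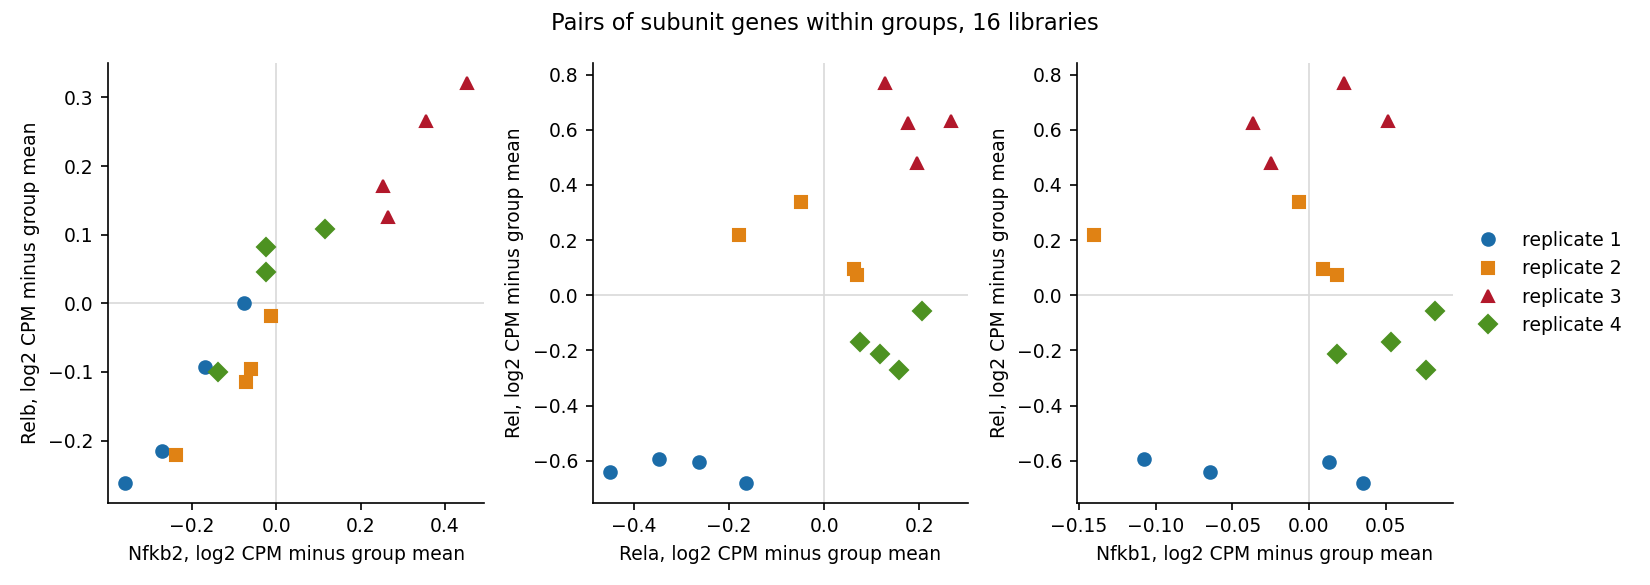
log2 CPM minus the group mean for 3 pairs of subunit genes in 16 libraries, with the symbol giving the replicate number. Nfkb2 and Relb lie along a line (r = 0.962), Rela and Rel less so (r = 0.697), and Nfkb1 and Rel show none (r = 0.042).

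Of the genes that control NF-kB, 11.1% were called with high CD5 in CD8 cells and 8.89% in CD4 cells. These shares were near that of all genes tested in CD8 cells and above it in CD4 cells. Of 45 pathway genes other than the subunits, 3 were higher and 2 lower with high CD5 in CD8 cells (9.46% of all genes tested were called). Tnip2, whose product binds p105 and keeps its partner kinase TPL2 stable, rose by 0.56 ± 0.09 on the log2 scale there, and Malt1, the protease and scaffold of the antigen receptor branch, by 0.35 ± 0.08. Map3k8 (TPL2), the other gene on the list of p105 partners, was not called, and of the 12 genes on the list from the antigen receptor to IKK 1 rose (Malt1) and 1 fell (Tab1). Tnfrsf9 (4-1BB), a costimulatory receptor that feeds NF-kB, rose by 1.98 ± 0.14, while the adaptor Tab1 fell by 0.25 and the TNF receptor Tnfrsf1a by 0.43. Their edgeR adjusted p ranged from 5.27e-07 to 0.0171.
In CD4 cells 4 of 45 were higher with high CD5 and 0 lower (4.08% of all genes tested were called). Malt1 rose by 0.34 ± 0.08 (edgeR adjusted p = 0.0254), beside the receptors Tnfrsf9 (2.79 ± 0.14), Tnfrsf4 (0.82 ± 0.15) and Tnfrsf18 (0.40 ± 0.11), of which Tnfrsf18 is also on the list of regulatory T cell markers. With the replicate block 7 of 45 passed, against 9.68% of all genes tested. The CD5 effect on Tnfrsf4 differed between lineages, by -1.10 ± 0.22 (CD8 minus CD4; edgeR adjusted p = 0.0454), the 1 called of 45 against 0.310% of all genes tested. With the replicate block Tnfrsf9 passed as well, at -0.81 ± 0.19 (edgeR adjusted p = 0.0323; 2.80% of all genes tested).
Pathway genes that differed between the lineages were mostly lower in CD8 cells. Among CD5hi cells 2 of 45 were higher, against 15.6% of all genes tested, and 16 were lower, against 14.8%. With the replicate block 4 were higher and 21 lower, where 46.7% of all genes tested were called. RNA of Nfkbid and Nfkbiz, the genes of nuclear IkB proteins, changed by -0.59 ± 0.13 and -0.40 ± 0.12 (log2, CD8 over CD4). Map3k14 (NIK), the kinase that starts processing of p100, changed by -0.46 ± 0.12, and Traf2 and Birc3, which hold NIK down, by -0.33 ± 0.06 and -0.46 ± 0.12. The genes of proteins that bind p105 went opposite ways in RNA, with Tnip2 at -0.45 ± 0.09 and the kinase gene Map3k8 (TPL2) at 0.97 ± 0.21. edgeR adjusted p for these genes ranged from 0.000444 to 0.0172. Among CD5lo cells 2 were higher and 7 lower (19.5% of all genes tested were called), again with Tnip2 lower (-0.71 ± 0.09) and Map3k8 higher (1.18 ± 0.21); with the replicate block 19 passed (32.1% of all genes tested).

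Known target genes of NF-kB that passed the test went both ways. The list holds 30 genes, of which 10 are also among the 45 pathway genes, so the counts of the 2 lists are not independent. Tnfrsf9 and Tnfrsf4, for example, count in both as higher in CD4 cells. Of the 30, 3 were higher and 3 lower with high CD5 in CD8 cells, where 9.46% of all genes tested were called. In CD4 cells 4 were higher and 2 lower, where 4.08% of all genes tested were. Among them Bcl2a1b, a relative of Bcl2 that protects from cell death and has near-identical copies that could share its reads, rose by 0.93 ± 0.21 in CD8 cells and 1.08 ± 0.21 in CD4 cells, while Tnf fell by 0.76 and Traf1 by 0.53 in CD8 cells (edgeR adjusted p 0.00485 to 0.0245). Nfkbia, the IkB-alpha gene and a textbook target, changed by -0.30 ± 0.23 in CD8 cells and -0.06 ± 0.23 in CD4 cells and was not called (edgeR adjusted p = 0.485 and 0.991). In CD8 over CD4 CD5hi cells 5 targets were higher, Icam1 among them by 1.85 ± 0.15, and 9 lower, where 30.3% of all genes tested were called; with the replicate block 23 of 30 passed, against 46.7%.
By replicate number, 21 of 30 targets and 28 of 45 pathway genes passed edgeR's test, where 48.9% of all genes tested did. Tnfaip3 (A20), a target that shuts the pathway off, followed the order of Rel, with means of 566, 1429, 1946 and 1103 CPM for numbers 1 to 4 and 94.9% of variation by number. Nfkbia had means of 270.1, 361, 426 and 265 CPM. The summed level of the 30 targets was 5549.9 CPM on average for number 1, 7086 for number 2, 7975 for number 3 and 6768 for number 4. Much of that sum is Tnfaip3 and Junb, a gene also on the list of early response genes, which had means of 1715, 2134, 2322 and 2152 CPM. A list of 16 early response genes, which cell handling is known to induce, summed to 8281, 9327, 9014 and 8453 CPM, and 10 of the 16 passed edgeR's test by number. They did not share one order: Fos averaged 878, 649.6, 654 and 452 CPM by number, and Nr4a1 182, 500.2, 537 and 385 CPM. Whether handling had a part in the levels of the subunit genes was not tested.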

How the data were processed

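RNA from 16 sorted T cell populations was sequenced. TRIzol and RNeasy columns served to extract it, and libraries came from either TruSeq RNA version 2 or TruSeq stranded mRNA kits, per the labels' protocols. No source used here says which library had which kit or whether counting used the strand. STAR 2.5.2a, featureCounts 1.4.6-p3, DESeq2 and the mm10 assembly were used, per the submitters' processing notes. The deposited values were whole-number counts per gene, 1 column per library although the design text names 2 technical runs of each, and 0 columns were left unmatched. Counts of 1 to 9 were even in 73.9 to 80.5% of cases, and halved counts were therefore tried as an alternative. Groups and replicate numbers come from the sample titles.

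The test on the counts was that of edgeR 4.0.16 (R 4.3.3) over all 16 libraries: TMM normalisation, filterByExpr (minimum count 10, minimum total 15), 1 term per group (12 residual degrees of freedom) and the two-sided quasi-likelihood F test. Benjamini-Hochberg adjustment ran over the 13554 genes of each comparison, with a threshold of 0.05. CPM are counts scaled to a common TMM-normalised library size, log2 CPM used a prior count of 2, and shares of variation are sums of squares of log2 CPM. The procedure was tested on simulated data. Libraries within a group were not copies of each other (chi-square per degree of freedom 28.6 to 203).

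Same-numbered libraries were checked for deviating together over all genes. The correlation of their deviations was 0.251 to 0.534 for the CD4 groups, 0.235 to 0.538 for the CD5hi groups and 0.203 to 0.704 for the CD5lo groups. It was over 0.1 in each of the 4 pairs. For these comparisons a fit with the number as a block is therefore given beside the main test, which left the number out. The labels do not say what the number marks. Alternatives were DESeq2 1.42.0, limma 3.58.1 voom, RLE factors, no filter, only the groups compared, the replicate block and leaving out each library; halved counts and leaving out the 3 libraries rich in B cell markers were added after the data were seen.

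The subunit genes, gene lists and comparisons were chosen with earlier results of these data known. Named were the 5 subunit genes, per pathway list and comparison up to 4 genes with the smallest adjusted p under 0.05 and a mean of at least 1 CPM, and the 3 genes most like each subunit gene among those with at least 5 CPM; the text gives a part of these. Nfkbia, Tnfaip3, Junb, Fos, Nr4a1, Izumo1r, Foxp3 and Psd were chosen after their values were seen. Exons come from GENCODE vM21 (GRCm38) and promoter windows from RefSeq (GRCm38.p6), which had entries for 3 of the 5 genes.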

Additional observations from a re-analysis of the deposited data

Results flagged for a closer look

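Among the 4 libraries of CD4 CD5lo cells, Nfkb1 stood apart in replicate 2. It had 264.9 CPM there, against 299, 303 and 303 CPM in replicates 1, 3 and 4. The gap to the nearest library was larger than Dixon's 95% critical value allows as a share of the group's range. With 20 sets of 4 libraries examined (5 genes in 4 groups), chance alone gives about 1 such value in 20 groups. This library had the highest normalisation factor of the 16 (1.02) and a total of 72407317 counts. Without it the log2 change of Nfkb1 with high CD5 in CD4 cells was 0.11, the lowest of the values with 1 library left out.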

How the results depend on the processing

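The count of subunit genes called stayed the same under 137 of 146 alternatives. It moved only for CD8 against CD4 among CD5hi cells, where 1 gene was called: 0 with only the groups compared in the fit, 2 with the replicate block, 2 with the replicate block when the 3 B-rich libraries were left out as well, and 0 to 1 with 1 library left out. Nfkb1 itself had log2 changes there of -0.22 to -0.16 with 1 library left out. Elsewhere the replicate block changed no call of a subunit gene. Same-numbered CD8 libraries did not all deviate together (correlations of 0.562, 0.255, 0.0274 and -0.0401 for numbers 1 to 4). The pairs numbered 3 and 4 each hold a B-rich library. The block is therefore given for CD5hi against CD5lo in CD8 cells here alone. The block for the difference of CD5 effects also rests on these libraries. In CD8 cells with the block Rela changed by -0.19 ± 0.07 (95% interval -0.34 to -0.04), with an edgeR adjusted p of 0.0648. Rel changed by 0.12 ± 0.08 (-0.04 to 0.28), and 0 members and 25.0% of all genes tested were called. Of the 45 pathway genes the block called 5 as higher and 10 as lower there, and of the 30 targets 5 and 8. Counts over all genes moved by more than 1.5 times with the block: to 1312 from 553 for CD5 in CD4 cells, 3390 from 1282 in CD8 cells, 379 from 42 for the difference of CD5 effects, 4345 from 2638 for lineage among CD5lo and 6336 from 4111 among CD5hi cells. The count of 42 was 207 by DESeq2, 129 without the B-rich libraries (502 with the block) and 8 to 165 with 1 library left out. With the block and without the B-rich libraries, the CD5 counts were 1165 in CD4 and 2937 in CD8 cells. The CD5 count in CD8 cells was 813 with only the groups compared, 763 without CD8 CD5hi replicate 2 and 811 without CD8 CD5lo replicate 4. By replicate number 6631 genes were called, and 4268 without the B-rich libraries.

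Of 620 log2 changes under alternatives, 47 changed sign, all of them uncalled. In CD5hi against CD5lo among CD4 cells, Rel was at -0.00233 by DESeq2, -0.00228 with RLE factors, -0.00529 without a filter and -0.00428 with only the groups compared. Without the B-rich libraries Nfkb2 was at 0.00952 and Rela at 0.0522 in that comparison, and Nfkb2 at 0.0278 in CD8 cells. Relb was at 0.00610 in the difference of CD5 effects without a filter. Rel in CD8 against CD4 CD5hi cells was at -0.00243 with the replicate block and -0.0280 with the block and without the B-rich libraries. With 1 library left out, CD5hi against CD5lo ranged in CD4 cells from -0.26 to 0.00934 for Nfkb2, -0.11 to 0.0520 for Rela and -0.18 to 0.25 for Rel, and in CD8 cells from -0.16 to 0.0465 for Nfkb2 and -0.13 to 0.42 for Rel. The difference of CD5 effects ranged from -0.0800 to 0.21 for Nfkb2, -0.22 to 0.000744 for Rela, -0.12 to 0.0858 for Relb and -0.13 to 0.42 for Rel. CD8 against CD4 ranged among CD5lo cells from -0.0649 to 0.24 for Nfkb2, -0.14 to 0.0160 for Rela, -0.0362 to 0.18 for Relb and -0.41 to 0.15 for Rel, and among CD5hi cells from -0.22 to 0.19 for Rel. The cause was not tested.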
